A study of Mus musculus with 15 samples.

Results

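The glucocorticoid receptor gene Nr3c1 and 9 of its known target genes (Sgk1, Fkbp5, Tsc22d3, Tat, Klf9, Dusp1, Zbtb16, Mt1 and Mt2) were taken by gene name from the count table of mouse liver RNA, which gives 10 genes of the 21702 in the table. All 10 passed the filter on low counts, as did 12172 genes in all. The receptor is a transcription factor that stays in the cytoplasm in a complex with heat shock proteins until it binds cortisol or corticosterone, then moves to the nucleus and activates or represses genes from DNA elements with a palindromic consensus. In hepatocytes it is known for switching on the enzymes of gluconeogenesis and amino acid breakdown during fasting and stress. Its targets are also read by other inputs: the metallothionein genes by zinc and inflammation, Sgk1 by serum and osmotic stress, Dusp1 by mitogens, and several of the others by the circadian clock.

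The study asked what the block of hepatocyte division does to the liver in pregnancy. The livers came from wild-type C57BL/6 female mice (C57BL/6N in the methods of the study), virgin when the experiments began, and every mouse, controls included, had received an adeno-associated virus of serotype 8 by tail vein before mating. AAV8-null carried no gene, and AAV8-p21 carried the mouse cDNA of the cell cycle inhibitor p21 (gene Cdkn1a) behind the TBG promoter, which drives expression in hepatocytes. The 5 groups of 3 livers were AAV8-null in nonpregnant mice (NP), AAV8-null at 8 and at 16 days post coitum (dpc), and AAV8-p21 at 8 and at 16 dpc. There was no group of AAV8-p21 in nonpregnant mice and none without virus. Nothing in the labels says more than that the 3 livers of a group are separate samples, so that p-values measure the spread between these samples. Replicates are named by the numbers of the table's columns, and those of the AAV8-p21 group at 16 dpc are 1, 3 and 4.

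Total counts were 12280709 to 17615185 per liver. Cdkn1a was at 3.29 to 127 CPM (the count of a gene scaled to a common library size) in the 9 AAV8-null livers and at 347 to 1664 CPM in the 6 AAV8-p21 livers, so the labels of the virus held in every liver. The hepatocyte markers were abundant in all livers, and pancreatic acinar markers summed to at most 0.457 CPM. Albumin alone took 23.5% to 27.8% of the counts in AAV8-null livers at 16 dpc and 9.76% to 10.8% in NP livers, and levels here are therefore CPM after scaling by TMM (trimmed mean of M values), which sets the bulk of genes equal between livers. Scaled by library totals alone, the median log2 fold change of all genes became -0.70 at 16 dpc against NP or against 8 dpc in AAV8-null livers and -0.59 at 16 dpc against 8 dpc in AAV8-p21 livers, with 233 genes higher and 5917 lower at 16 dpc against NP in place of 451 and 343. Among the AAV8-null livers at 8 dpc, replicate 3 held the highest Sgk1, Fkbp5, Tsc22d3 and Tat of its group, and among the AAV8-p21 livers at 8 dpc, replicate 3 held the highest Mt1 and Mt2. In bulk RNA, fewer cells of a type and less RNA per cell cannot be told apart.

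**Figure D1:**
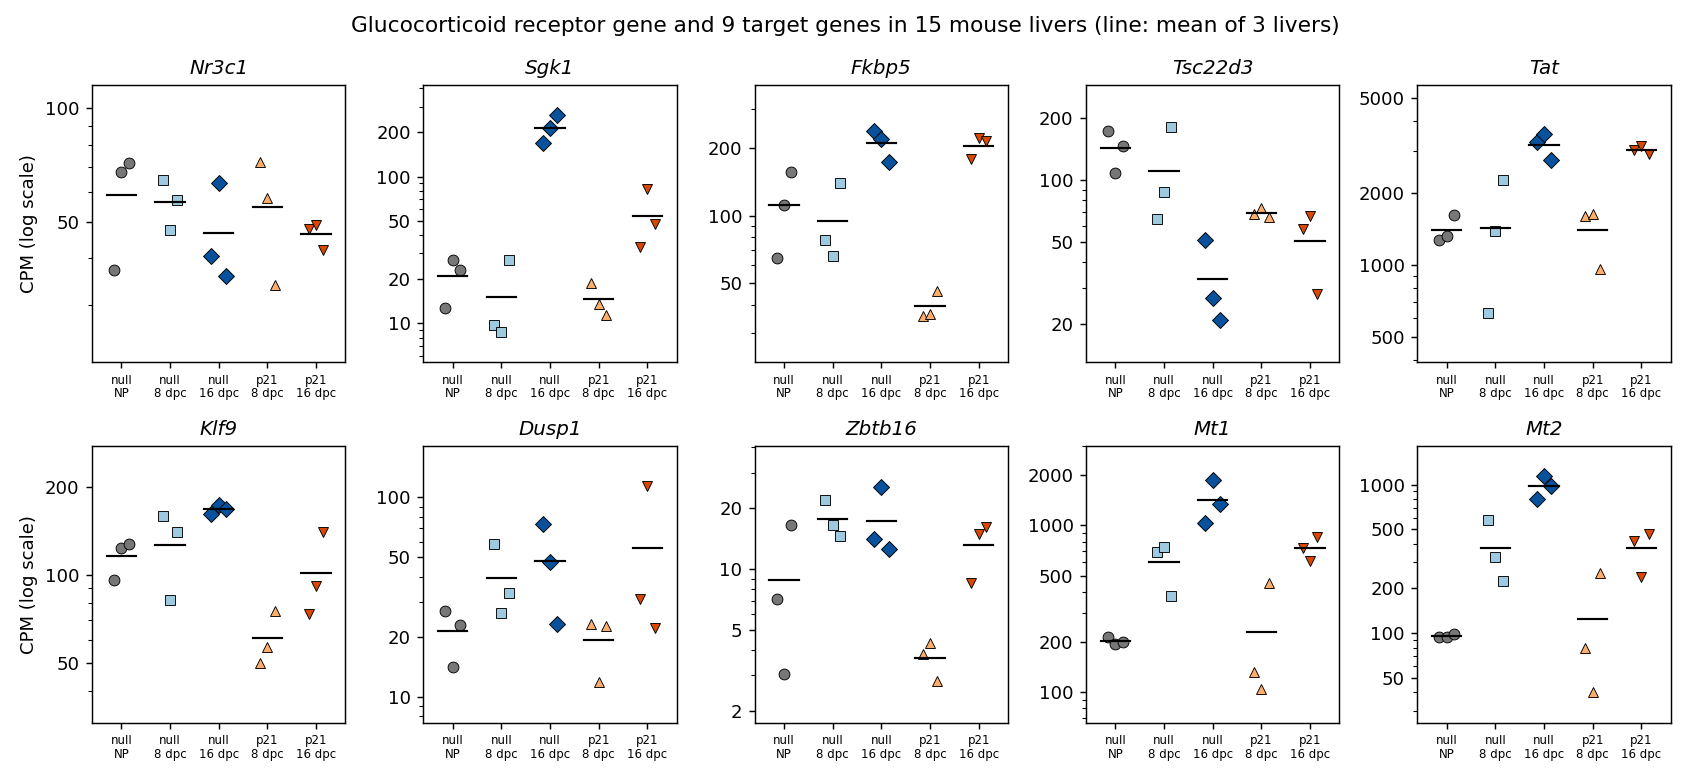
Level of each of the 10 genes in each of the 15 livers, in TMM-scaled CPM on a log axis with its own range per panel. Points are single livers and lines are means of 3 livers. Sgk1, Mt1 and Mt2 were highest in the AAV8-null livers at 16 dpc, Tsc22d3 was lowest there, and Nr3c1 overlapped in all 5 groups.

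The mRNA of the receptor itself showed no change that passed. Nr3c1 was at 37.2, 67.6 and 71.7 CPM in NP livers, at 64.4, 47.5 and 56.9 CPM in AAV8-null livers at 8 dpc and at 40.6, 63.4 and 35.8 CPM in AAV8-null livers at 16 dpc. With AAV8-p21 it was at 72.2, 57.8 and 33.8 CPM at 8 dpc, next to 47.7, 48.9 and 42.0 CPM at 16 dpc. All 5 groups overlapped, and the lowest and the highest liver, 33.8 and 72.2 CPM, lay in the same group. The log2 fold change at 16 dpc against NP in AAV8-null livers was -0.34 (95% interval -0.98 to 0.30), and that of AAV8-p21 against AAV8-null at 16 dpc was -0.01 (-0.65 to 0.63), so that changes of up to these bounds remain possible. As a share of the whole library, with no TMM scaling, Nr3c1 was lower at 16 dpc than in NP livers by a log2 fold change of -1.05 (edgeR, adjusted p = 0.0144), beside the shift of -0.70 in the median of all genes.

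Per kilobase of merged exons, the order of levels in NP livers ran from Tat (583 CPM per kb) over Mt2 (163), Mt1 (162), Tsc22d3 (32.8), Klf9 (24.1), Fkbp5 (11.7), Nr3c1 (7.66), Dusp1 (6.43) and Sgk1 (4.28) to Zbtb16 (1.68). The annotated exons of Mt1 merge to 1246 bases, its whole span with introns, and those of Mt2 to 588 bases, so the values of these genes per kb rest on unlike lengths. In AAV8-null livers at 16 dpc Mt2 led with 1659 CPM per kb, ahead of Tat (1325) and Mt1 (1139), Sgk1 had moved to the fourth place with 43.9 CPM per kb, and Tsc22d3 had dropped to the eighth with 7.64 CPM per kb. The receptor lay at 6.06 CPM per kb there, below all targets but Zbtb16 (3.29).

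In late pregnancy with AAV8-null, 4 of the 10 genes passed against NP in edgeR, 3 higher and 1 lower, beside 6.52% of all genes tested (3.71% higher and 2.82% lower). Sgk1, Mt1 and Mt2 rose and Tsc22d3 fell. Besides these, DESeq2 called Fkbp5 (adjusted p = 0.0399) and Tat (0.0100), both higher, and limma called Tat (0.0320). The groups did not overlap for 7 of the 10 genes, 6 higher and 1 lower, beside 24.6% of all genes (12.1% higher and 12.5% lower), and 6 of the 10 had an unadjusted p under 0.05, beside 21.2%. The median log2 fold change of the 9 targets was 1.17, and that of all genes tested was -0.03.

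Sgk1 encodes a serine/threonine kinase that is named for its induction by serum and glucocorticoids and regulates ion channels and transporters. It lies at chr10:21882184-21999903 on the plus strand (GRCm38, GENCODE M21). Of the 6 starts of Sgk1 in the RefSeq table for GRCm38.p6, 1 has the full palindrome of the glucocorticoid response element, AGAACA and TGTTCT with 3 bases of any kind between them, from 189 to 175 bases before the start. The letters occur, on either strand, in 3 of 32851 windows of 250 bases before to 50 bases after a start (0.00913%), and in 1 of the 15 windows of the 8 genes of this group that had an entry. The 250 bases before that start, chr10:21993640-21993889 on the plus strand, are shown because Sgk1 had the widest range of the 10 genes, 30.1-fold over the 15 livers, and the capitals mark the palindrome.
Sgk1: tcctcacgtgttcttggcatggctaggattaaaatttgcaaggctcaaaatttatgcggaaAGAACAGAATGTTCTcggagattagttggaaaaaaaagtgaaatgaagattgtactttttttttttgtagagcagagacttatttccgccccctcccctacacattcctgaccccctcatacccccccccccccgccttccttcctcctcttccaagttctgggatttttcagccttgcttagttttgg
The shorter AGAACA alone, which is part of the palindrome, was in 19% of all windows, and besides Sgk1 it was in 1 window of Tsc22d3. The E-box CACGTG, read by clock factors among others, was in 7.15% of all windows and in 3 of the 15, 1 each of Sgk1, Fkbp5 and Dusp1. A match of letters is no evidence of binding, and which Sgk1 start the livers used cannot be read from counts per gene.

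Sgk1 was at 12.7, 27.2 and 23.0 CPM in NP livers, at 9.72, 8.75 and 26.8 CPM at 8 dpc, next to 168, 214 and 263 CPM at 16 dpc with AAV8-null. Every liver at 16 dpc stood above every liver of the earlier groups, by more than the spread within any group. The log2 fold change was 3.36 ± 0.47 (SE) against NP (10.2-fold, adjusted p = 0.000692) and 3.83 ± 0.48 against 8 dpc (14.2-fold, adjusted p = 0.000359), and both passed without any 1 library. Replicate 3 of the 8 dpc group was higher than the other 2 livers of its group, and without it the change against 8 dpc was 4.54. With AAV8-p21, Sgk1 was at 18.9, 13.6 and 11.5 CPM at 8 dpc, next to 33.0, 82.3 and 47.6 CPM at 16 dpc. It rose between the stages here too, by a log2 fold change of 1.89 ± 0.44 (3.70-fold, adjusted p = 0.0310). That call passed without replicate 1 of the 16 dpc group (adjusted p = 0.0295) and was lost without each of the other 5 libraries (0.0571 to 0.141).

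Fkbp5 encodes an immunophilin co-chaperone that binds the receptor complex and lowers its affinity for hormone, and is one of the most used readouts of receptor activity. It was at 64.8, 112 and 157 CPM in NP livers, at 78.1, 65.9 and 140 CPM at 8 dpc, next to 240, 220 and 174 CPM at 16 dpc with AAV8-null. With AAV8-p21 it was at 35.5, 36.5 and 45.9 CPM at 8 dpc, next to 178, 222 and 215 CPM at 16 dpc. The livers at 16 dpc formed 1 range under both viruses, and the AAV8-p21 livers at 8 dpc were the lowest of all. Fkbp5 rose between 8 and 16 dpc by 2.38 ± 0.33 (log2, 5.21-fold, adjusted p = 0.000923) with AAV8-p21, a call that passed without any 1 library, and by 1.16 ± 0.31 (2.23-fold, adjusted p = 0.0407) with AAV8-null. The second call passed without replicate 3 of the 8 dpc group (1.55, adjusted p = 0.00849) and was lost without each of the other 5 libraries (0.0581 to 0.178). In edgeR it was also lost by library totals (0.43, adjusted p = 0.239) and with the compared groups fitted alone (0.0879). It was lost too in the 12 livers other than AAV8-p21 at 16 dpc (0.0596). Against NP the change at 16 dpc with AAV8-null was 0.93 in edgeR (0.26 to 1.59, adjusted p = 0.0986), with groups that did not overlap. DESeq2 called it (0.94, adjusted p = 0.0399).

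Tsc22d3, also called Gilz, encodes a leucine zipper protein that carries part of the anti-inflammatory action of glucocorticoids. It moved the other way. Its level was 173, 108 and 146 CPM in NP livers, 64.7, 87.5 and 181 CPM at 8 dpc and 51.5, 26.9 and 21.1 CPM at 16 dpc with AAV8-null, so that all 3 livers at 16 dpc were below the 6 others. It fell against NP, with a log2 fold change of -2.10 ± 0.42 (4.29-fold, adjusted p = 0.00895), and that call passed without any 1 library. Against 8 dpc it fell by 1.74 (SE 0.41, adjusted p = 0.0236), and this call was lost without replicate 3 of the 8 dpc group (-1.20, adjusted p = 0.0606), replicate 2 of the 16 dpc group (adjusted p = 0.102) or replicate 3 of the 16 dpc group (0.0857). With AAV8-p21 the level was 68.5, 73.0 and 66.0 CPM at 8 dpc and 57.8, 66.8 and 28 CPM at 16 dpc. These 2 groups overlapped, with a log2 fold change of -0.44 (-1.31 to 0.42, adjusted p = 0.649).

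Mt1 and Mt2 encode metallothioneins, small cysteine-rich proteins that bind zinc and copper, and lie next to each other on chromosome 8 (Mt1 at chr8:94179082-94180327 and Mt2 at chr8:94172664-94173568, both on the plus strand). Besides glucocorticoids they respond to metals through the core of the metal response element, TGCACNC or TGCGCNC. On either strand this core was in 25.7% of all windows and in 4 of the 15 windows of the 8 genes with an entry. The window of Mt1 held 3 such cores and that of Mt2 held 4. The 250 bases before each start are shown because both genes rose at 16 dpc against NP with AAV8-null, with the cores in capitals, for Mt1 at chr8:94178839-94179088 and for Mt2 at chr8:94172368-94172617. Of the cores, 2 of Mt1 and 1 of Mt2 lie behind the start listed by RefSeq and are not in the letters shown. Only 1 start of each gene was listed and searched, and whether the livers used it cannot be read from counts per gene. The full glucocorticoid palindrome was in neither window.
Mt1: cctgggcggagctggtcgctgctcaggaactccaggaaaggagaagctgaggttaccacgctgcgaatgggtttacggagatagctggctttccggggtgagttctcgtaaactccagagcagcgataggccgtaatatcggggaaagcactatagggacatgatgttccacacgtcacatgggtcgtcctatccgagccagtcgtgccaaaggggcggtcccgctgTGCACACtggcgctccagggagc
Mt2: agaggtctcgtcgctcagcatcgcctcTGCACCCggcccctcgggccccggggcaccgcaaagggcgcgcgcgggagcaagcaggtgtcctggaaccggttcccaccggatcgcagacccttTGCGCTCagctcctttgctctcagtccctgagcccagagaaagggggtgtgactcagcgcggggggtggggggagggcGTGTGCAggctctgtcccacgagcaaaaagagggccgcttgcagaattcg

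Mt1 was at 213, 193 and 200 CPM in NP livers, at 688, 744 and 377 CPM at 8 dpc, next to 1037, 1877 and 1341 CPM at 16 dpc with AAV8-null. Mt2 was at 94.8, 94.5 and 98.4 CPM, at 574, 324 and 223 CPM and at 802, 1141 and 983 CPM in the same groups. Both genes stepped up without overlap from NP to 8 dpc and from 8 to 16 dpc. At 16 dpc against NP the log2 fold change was 2.81 ± 0.47 for Mt1 (7.03-fold, adjusted p = 0.00269) and 3.35 ± 0.56 for Mt2 (10.2-fold, adjusted p = 0.00254), and both passed without any 1 library. In edgeR the steps on either side of 8 dpc did not pass (adjusted p = 0.370 and 0.113 for Mt1, 0.315 and 0.123 for Mt2). The step from NP to 8 dpc was called by limma for Mt1 (adjusted p = 0.00197) and Mt2 (0.00318) and by DESeq2 for Mt2 (0.0262), and that from 8 to 16 dpc by DESeq2 for Mt1 (0.0490).

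With AAV8-p21, Mt1 was at 132, 105 and 454 CPM at 8 dpc, next to 733, 611 and 846 CPM at 16 dpc. Mt2 was at 79.8, 40.1 and 254 CPM at 8 dpc, next to 418, 238 and 465 CPM at 16 dpc. Replicate 3 at 8 dpc stood above its 2 group mates for both genes, and it did so too for the clock output gene Dbp, at 61.4 CPM against 0.642 and 1.71 CPM; the part of this in the result was not tested. The log2 fold change between the stages was 1.66 (0.70 to 2.63, adjusted p = 0.0599) for Mt1 and 1.58 (0.47 to 2.70, adjusted p = 0.123) for Mt2 in edgeR, where DESeq2 (adjusted p = 0.00463 and 0.0270) and limma (0.000131 and 0.00164) called both. Without that replicate 3 the changes were 2.64 (adjusted p = 0.00148) and 2.65 (adjusted p = 0.00574).

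Tat encodes tyrosine aminotransferase, the classic hormone-induced enzyme of the liver, which breaks down tyrosine. It was at 1275, 1319 and 1616 CPM in NP livers, at 627, 1384 and 2260 CPM at 8 dpc, next to 3259, 3548 and 2755 CPM at 16 dpc with AAV8-null. With AAV8-p21 it was at 1597, 1634 and 963 CPM at 8 dpc, next to 3026, 3154 and 2901 CPM at 16 dpc. All 6 livers at 16 dpc were above the 9 others. The log2 fold change at 16 dpc was 1.18 (0.43 to 1.93, adjusted p = 0.0611) against NP, 1.16 (0.41 to 1.91, adjusted p = 0.0611) against 8 dpc with AAV8-null and 1.11 (0.36 to 1.86, adjusted p = 0.107) with AAV8-p21, and none of these passed in edgeR with all groups in 1 model. DESeq2 and limma called all 3 of them. With the compared groups fitted alone, edgeR called the change against NP (1.18, adjusted p = 0.0303). Without replicate 3 of the AAV8-null group at 8 dpc, its highest liver, the change against 8 dpc was 1.67 (adjusted p = 0.00838).

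Klf9 encodes a zinc finger repressor that is induced by glucocorticoids and thyroid hormone. It was at 96.3, 124 and 128 CPM in NP livers, at 159, 82.4 and 140 CPM at 8 dpc, next to 163, 174 and 168 CPM at 16 dpc with AAV8-null, and at 49.7, 56.8 and 75.2 CPM at 8 dpc and 73.7, 92.0 and 140 CPM at 16 dpc with AAV8-p21. The livers at 16 dpc with AAV8-null were above those at NP and at 8 dpc without overlap, by 0.54 (-0.04 to 1.11, adjusted p = 0.271) and 0.40 (-0.17 to 0.98, adjusted p = 0.407). With library totals alone both signs turned, to -0.15 and -0.30. Between the stages with AAV8-p21 only limma called it (0.69, adjusted p = 0.0493).

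Zbtb16, a transcriptional repressor also known as PLZF, had the lowest mean level per length in NP livers. It was at 7.13, 3.05 and 16.5 CPM in NP livers, at 22.1, 16.6 and 14.6 CPM at 8 dpc, next to 14.1, 25.5 and 12.6 CPM at 16 dpc with AAV8-null. With AAV8-p21 it was at 3.80, 4.34 and 2.80 CPM at 8 dpc, next to 8.60, 14.9 and 16.2 CPM at 16 dpc. The AAV8-p21 livers at 8 dpc were below all others but 1 NP liver. Between the stages with AAV8-p21 Zbtb16 rose by 1.86 ± 0.48 (log2, 3.62-fold, adjusted p = 0.0497), a call that was lost without any 1 of the 6 libraries (adjusted p = 0.0524 to 0.172). Against NP, AAV8-null livers at 16 dpc overlapped (0.97, -0.01 to 1.96, adjusted p = 0.242). Without NP replicate 3, the highest of its group, that change was 1.78 (adjusted p = 0.0376).

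Dusp1 encodes a phosphatase that switches off MAP kinases and is induced both by glucocorticoids and by mitogens. Its gene overlaps Ergic1, which lies on the opposite strand, and the use of the strand in counting is not given in the sources used here, so the reads of the pair cannot be told apart. The window before its start held a full cyclic AMP response element, TGACGTCA, which was in 1.79% of all windows and in no other window of the group. The 250 bases before the start, chr17:26508473-26508722 on the minus strand, are shown with it in capitals.
Dusp1: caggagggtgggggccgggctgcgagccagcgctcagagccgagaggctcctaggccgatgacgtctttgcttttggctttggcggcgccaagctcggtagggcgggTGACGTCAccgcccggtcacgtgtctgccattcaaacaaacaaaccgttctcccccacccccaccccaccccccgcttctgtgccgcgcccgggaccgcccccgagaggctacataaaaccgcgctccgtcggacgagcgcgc
Dusp1 was at 26.8, 14.1 and 23.0 CPM in NP livers, at 58.2, 26.3 and 33.2 CPM at 8 dpc, next to 73.4, 47.4 and 23.0 CPM at 16 dpc with AAV8-null, and at 23.2, 11.9 and 22.6 CPM at 8 dpc and 30.9, 114 and 22.1 CPM at 16 dpc with AAV8-p21. A single liver, replicate 3 of the AAV8-p21 group at 16 dpc, was the highest of all 15. Without that liver the sign of AAV8-p21 against AAV8-null at 16 dpc turned from 0.21 to -0.85. No comparison of Dusp1 passed in edgeR or DESeq2, and limma called its difference between the stages with AAV8-p21 (1.99, adjusted p = 0.0230). In edgeR this difference was 1.53 (adjusted p = 0.171), and as low as 0.47 with 1 library left out.

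At 8 dpc against NP with AAV8-null, 0 of the 10 genes passed in edgeR, where 0% of all genes did, with 803 genes (6.6%) and, of the 10, Zbtb16, Mt1 and Mt2 at an unadjusted p under 0.05. DESeq2 called 1 of the 10 (Mt2, adjusted p = 0.0262) and limma 5, of which Zbtb16, Mt1 and Mt2 were higher and Sgk1 (-1.25, adjusted p = 0.0214, beside -0.47 in edgeR) and Fkbp5 (-0.67, adjusted p = 0.0366) lower. The groups did not overlap for Mt1 and Mt2, both higher, by a log2 fold change of 1.58 (0.61 to 2.54) and 1.96 (0.84 to 3.09), beside 10.2% of all genes (4.69% higher). Between 8 and 16 dpc with AAV8-null, 3 of the 10 passed, Sgk1 and Fkbp5 higher and Tsc22d3 lower, beside 6.87% of all genes (3.16% higher and 3.71% lower). The groups did not overlap for 7 of the 10, 6 higher and 1 lower, beside 25.4% (12.5% and 12.9%), and 6 of the 10 had an unadjusted p under 0.05, beside 22.7%. With AAV8-p21, in livers that share none with the former comparison, 3 of the 10 passed between 8 and 16 dpc, Sgk1, Fkbp5 and Zbtb16, all higher, beside 3.32% of all genes (2.09% higher and 1.23% lower). The groups did not overlap for 5 of the 10, all higher, beside 22.9% (11.5% higher), and 8 of the 10 had an unadjusted p under 0.05, beside 16.4%. DESeq2 called 5 of the 10 and limma 4 between the stages with AAV8-null, and 6 and 8 with AAV8-p21. Sgk1 and Fkbp5 thus passed between the stages under either virus.

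**Figure D2:**
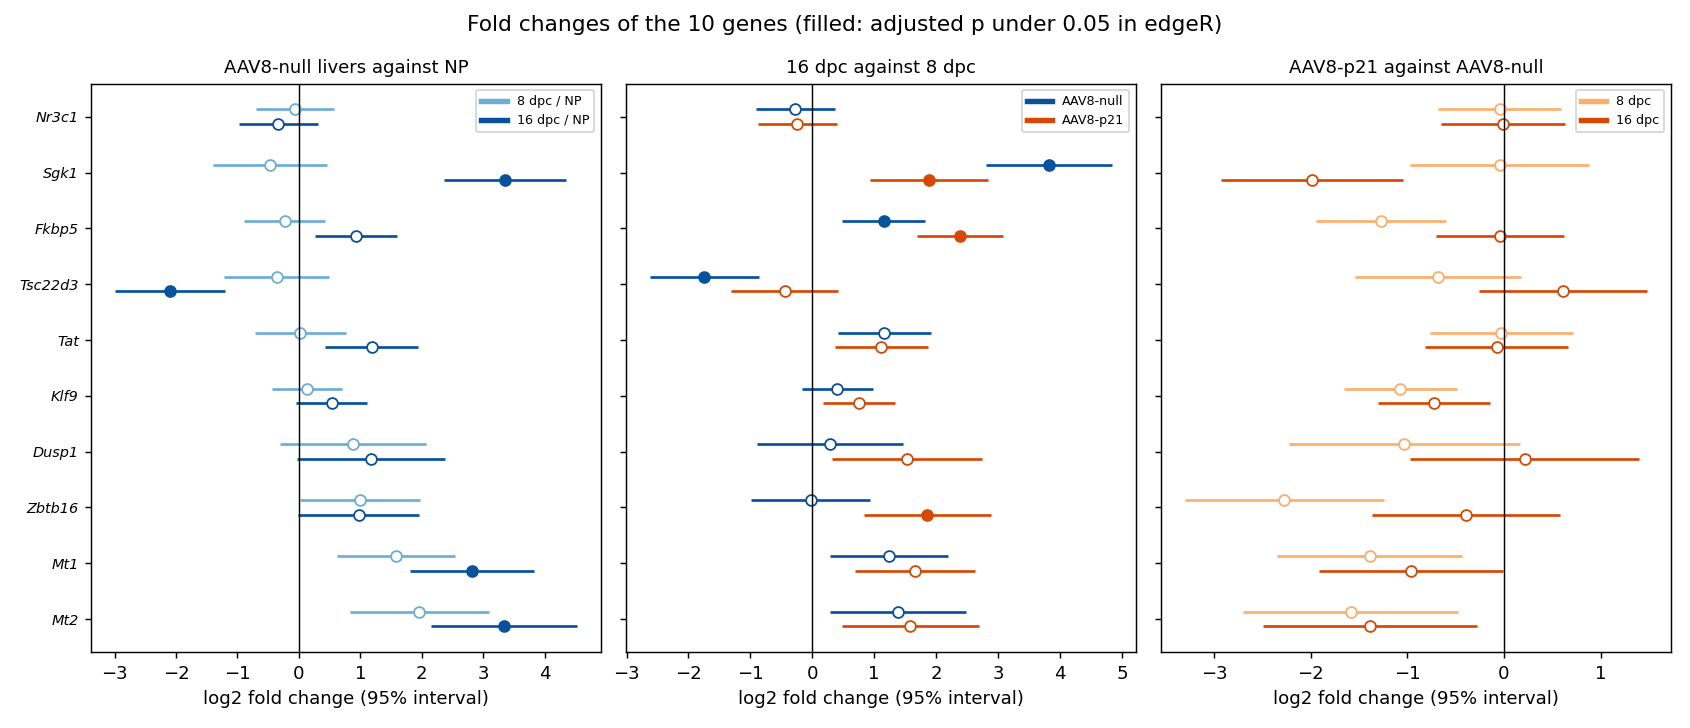
Log2 fold changes of the 10 genes with 95% intervals in 6 comparisons: AAV8-null livers at 8 and 16 dpc against NP (left), 16 against 8 dpc for each virus (middle) and AAV8-p21 against AAV8-null at each stage (right). Filled points passed at an adjusted p under 0.05; in the right panel none did, and all 10 estimates at 8 dpc lie below 0.

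With AAV8-p21 against AAV8-null at 16 dpc, 0 of the 10 genes passed in edgeR, beside 0.0739% of all genes, with 1189 genes (9.77%) and 4 of the 10 at an unadjusted p under 0.05. The groups did not overlap for 4 of the 10, Sgk1, Klf9, Mt1 and Mt2, all lower with AAV8-p21, beside 13.7% of all genes (7.02% lower). Sgk1 was at 33.0, 82.3 and 47.6 CPM against 168, 214 and 263 CPM, a log2 fold change of -1.99 (-2.93 to -1.04, unadjusted p = 0.000449, adjusted p = 0.112). DESeq2 (adjusted p = 0.00166) and limma (0.0360) called it. The other 3 differed by -0.72 (-1.30 to -0.14, adjusted p = 0.391) for Klf9, -0.96 (-1.91 to -0.01, adjusted p = 0.510) for Mt1 and -1.39 (-2.49 to -0.28, adjusted p = 0.390) for Mt2. Fkbp5 (-0.04, -0.71 to 0.62) and Tat (-0.07, -0.82 to 0.67) overlapped fully. Tsc22d3, which was lowest in the AAV8-null livers at 16 dpc, was at 0.62 (-0.25 to 1.48, adjusted p = 0.644). By their means the AAV8-p21 livers at 16 dpc thus lay between NP and AAV8-null at 16 dpc for Sgk1, Tsc22d3, Zbtb16, Mt1 and Mt2. For Zbtb16 these means were 8.89 CPM in NP, 13.2 CPM with AAV8-p21 and 17.4 CPM with AAV8-null, with livers that overlapped. The AAV8-p21 means lay beside AAV8-null for Fkbp5, Tat and Nr3c1. For Klf9 the mean of 102 CPM with AAV8-p21 was below both NP (116 CPM) and AAV8-null (168 CPM), and for Dusp1 the mean of 55.6 CPM was above both (21.3 and 47.9 CPM), with livers that overlapped with AAV8-null.

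At 8 dpc, AAV8-p21 against AAV8-null again gave 0 of the 10 genes in edgeR, beside 0.0246% of all genes, with 631 genes (5.18%) and 5 of the 10 at an unadjusted p under 0.05. DESeq2 called 2 and limma 4. The groups did not overlap for Fkbp5, Klf9, Dusp1 and Zbtb16, all lower with AAV8-p21, beside 10% of all genes (4.49% lower). The 3 largest of these differences by p were Zbtb16 (-2.27, -3.30 to -1.24, adjusted p = 0.228), Fkbp5 (-1.27, -1.94 to -0.60, adjusted p = 0.415) and Klf9 (-1.07, -1.65 to -0.49, adjusted p = 0.415). DESeq2 called Fkbp5 (adjusted p = 0.0376) and Zbtb16 (0.00176). All 10 estimates were negative, with a median of -1.05 beside 0.00 for all genes, though those of Nr3c1, Sgk1 and Tat lay between -0.04 and -0.03, and limma gave the opposite sign for these 3. The differences of Mt1 (-1.39, -2.35 to -0.43, adjusted p = 0.634) and Mt2 (-1.59, -2.70 to -0.48, adjusted p = 0.649) did not pass in edgeR. The 4 calls of limma were Mt1 (-2.33, adjusted p = 0.00212), Mt2 (-2.73, 0.00710), Fkbp5 (-1.06, 0.0347) and Klf9 (-1.12, 0.0347). Without replicate 3 of the AAV8-p21 group Mt1 passed (-2.35, adjusted p = 0.0296) and Mt2 was at -2.64 (adjusted p = 0.0722).

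Whether the difference between the viruses itself changed with the stage was tested as an interaction. None of the 10 genes, 0% of all genes, passed in edgeR, and none passed in DESeq2 or limma. At an unadjusted p under 0.05 in edgeR there were 376 genes (3.09%), among them Sgk1 (-1.94, -3.25 to -0.63), Fkbp5 (1.23, 0.28 to 2.17), Tsc22d3 (1.3, 0.07 to 2.52) and Zbtb16 (1.88, 0.48 to 3.28), all with an adjusted p that rounded to 1. Of these 4, the sign was negative for Sgk1, whose estimated rise from 8 to 16 dpc was the smaller one with AAV8-p21, and positive for the other 3. With 1 library left out Sgk1 ran from -2.65 to -1.66 and Fkbp5 from 0.83 to 1.43. Tsc22d3 ran from 0.75 to 1.77 and Zbtb16 from 1.70 to 2.27, and none of the 4 passed. The interaction of Mt1 was 0.43 and reached 1.38 with 1 library left out, the highest without replicate 3 of the AAV8-p21 group at 8 dpc.

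**Figure D3:**
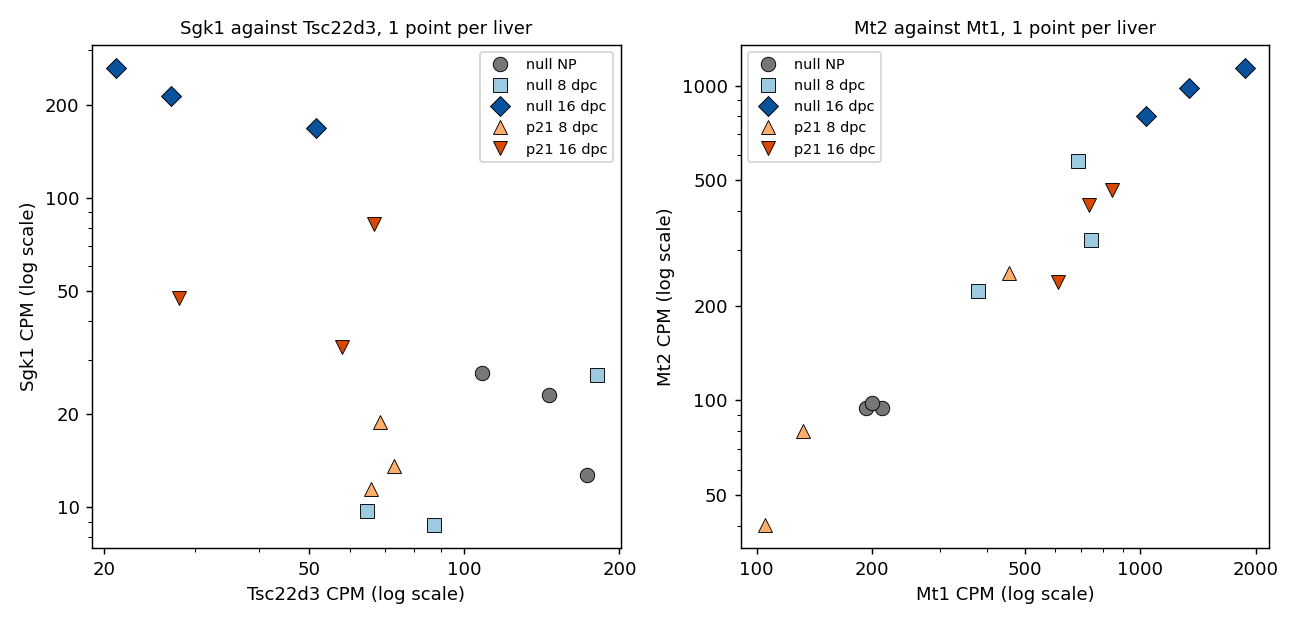
Sgk1 against Tsc22d3 (left) and Mt2 against Mt1 (right) in TMM-scaled CPM on log axes, 1 point per liver. The AAV8-null livers at 16 dpc combine the highest Sgk1 with low Tsc22d3, and livers with more Mt1 tended to hold more Mt2 (r = 0.98 over the 15 livers).

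Ratios within a liver do not depend on the scaling between livers. The ratio of Sgk1 to Tsc22d3 counts was 0.0736 to 0.251 in NP livers, 0.100 to 0.150 at 8 dpc and 3.27 to 12.5 at 16 dpc with AAV8-null, and 0.174 to 0.276 at 8 dpc and 0.571 to 1.70 at 16 dpc with AAV8-p21. Both groups at 16 dpc were above all earlier livers, and the AAV8-p21 group was below the AAV8-null group without overlap (two-sided exact permutation test, p = 0.1, which is the lowest possible with 3 livers against 3). At 8 dpc the order was the opposite, with 0.212 ± 0.056 (SD, n = 3) for AAV8-p21 and 0.133 ± 0.029 for AAV8-null and no overlap (exact permutation p = 0.1). The ratio of Mt2 to Mt1 was 0.476 ± 0.026 (SD, n = 3) in NP livers, 0.705 ± 0.086 in AAV8-null livers at 16 dpc and 0.502 ± 0.099 in AAV8-p21 livers at 16 dpc. The AAV8-null livers at 16 dpc did not overlap with either of these (exact permutation p = 0.1 for both). They overlapped with the AAV8-null livers at 8 dpc (0.621 ± 0.201, 0.436 to 0.834, exact permutation p = 0.6), whose highest liver was above them, and the AAV8-p21 livers had like ratios at both stages (0.515 ± 0.117 at 8 dpc, exact permutation p = 0.9). Over the 15 livers, which share their group, log2 CPM of Mt1 and Mt2 correlated at r = 0.98, and at 0.91 once group means were removed. The next highest correlations between members, Sgk1 with Tat (0.81) and Sgk1 with Fkbp5 (0.77), were at 0.53 and 0.61 within groups. Nr3c1 correlated with its 9 targets between -0.40 (Mt1) and 0.28 (Tsc22d3), and between -0.41 (Mt1) and 0.41 (Sgk1) within groups.

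Among all genes tested, those whose log2 CPM followed the members most closely over the 15 livers were Igfbp1 (r = 0.95), Plekha1 (0.95) and Klhl7 (0.94) for Sgk1, Camk2b (0.97), Brpf3 (0.93) and Glrx (0.93) for Fkbp5, Gba2 (0.89), Rhbdl1 (0.88) and Pbld2 (0.88) for Tsc22d3, and Tsc1 (0.93), Sft2d2 (0.92) and Aldh6a1 (0.90) for Nr3c1. None of these 12 genes is a member of the group.

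Of 7 genes that set the supply of hormone in the cell, 3 rose at 16 dpc against NP with AAV8-null and 4 had a negative sign, with a median log2 fold change of -0.37. Serpina6, the corticosteroid-binding globulin of plasma, was at 583, 256 and 340 CPM in NP livers, at 420, 371 and 65.6 CPM at 8 dpc, next to 27151, 15817 and 6195 CPM at 16 dpc with AAV8-null. It rose by 5.38 ± 0.80 (log2, 41.7-fold, adjusted p = 0.00116) against NP, by 5.84 against 8 dpc (adjusted p = 0.000878) and, with AAV8-p21, by 5.12 between the stages (adjusted p = 0.00243), each without any 1 library too. Hsd11b1, which regenerates active hormone inside the cell, rose by 1.43 against NP (adjusted p = 0.000878) and by 1.78 against 8 dpc with AAV8-null (adjusted p = 0.000211). With AAV8-p21 it rose by 1.0 (adjusted p = 0.0151), a call that was lost without AAV8-p21 replicate 2 at 8 dpc (adjusted p = 0.0795) or replicates 1 (0.0589) or 3 (0.0612) at 16 dpc. H6pd, which supplies the cofactor of Hsd11b1, rose by 1.58 against NP (adjusted p = 0.00116) and by 1.10 against 8 dpc (adjusted p = 0.0132, 0.0514 without replicate 2 at 8 dpc, 0.0882 with the compared groups alone, and 0.40 with 0.157 by library totals). Against 8 dpc 3 of the 7 supply genes were higher and Srd5a1, a steroid-reducing enzyme, was lower against 8 dpc (-1.70, adjusted p = 0.0464, lost in 4 of 6 leave-outs with up to 0.177), with a median of -0.42, and 2 were higher between the stages with AAV8-p21, with a median of 0.39. With AAV8-p21 against AAV8-null at 16 dpc 0 of the 7 passed in edgeR, 3 had an unadjusted p under 0.05, and DESeq2 and limma called 1 each. There H6pd (452 to 604 against 760 to 1025 CPM, -0.83, adjusted p = 0.224) and Hsd11b1 (990 to 1373 against 1432 to 2051 CPM, -0.58, adjusted p = 0.349) were lower with AAV8-p21 without overlap, and Nr3c2, the mineralocorticoid receptor, was higher without overlap (1.04, adjusted p = 0.316). The groups did not overlap for 13.7% of all genes in that comparison. The shares of all genes in the first 3 comparisons were 3.71%, 3.16% and 2.09% higher and 2.82%, 3.71% and 1.23% lower, which stand beside the counts of the next lists too. Of 16 chaperones and coregulators of the receptor, 0 passed in any comparison in edgeR or DESeq2, with at most 1 at an unadjusted p under 0.05 and at most 2 called by limma. Their median at 16 dpc against NP was 0.02, with 9 positive and 7 negative.

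Of 20 further liver targets, 3 passed in edgeR at 16 dpc against NP with AAV8-null, all higher: Pdk4, a brake on glucose oxidation (3.78, adjusted p = 0.0113), Igfbp1, which binds insulin-like growth factors (3.64, adjusted p = 0.000365) and Irs2, an adaptor of the insulin receptor (1.55, adjusted p = 0.0355). There DESeq2 called 4 of the 20 and limma 8, and 8 had an unadjusted p under 0.05 in edgeR. Igfbp1 passed without any 1 library, Irs2 failed without each 1 of the 6 (adjusted p up to 0.135), and Pdk4 failed without NP replicate 2 (adjusted p = 0.0599), with the replicate block (0.0557) and with the 2 compared groups fitted alone (0.0676). Pdk4 was at 159, 1222 and 110 CPM at 16 dpc, and without replicate 2, the highest of these, its change was 1.89. Against 8 dpc, 2 of the 20 passed, Pdk4 (4.49, adjusted p = 0.00558, and 2.60 without the same replicate 2) and Igfbp1 (3.21, adjusted p = 0.000835), where DESeq2 called 5 and limma 6, and with AAV8-p21 1 did, Lpin1 (2.27, adjusted p = 0.0386), which passed in 1 of 6 leave-outs, where DESeq2 called 6 and limma 9. The gluconeogenic genes Pck1 and G6pc passed in no comparison in edgeR. With AAV8-null, G6pc levels of 249, 228 and 397 CPM at 8 dpc did not overlap with 837, 607 and 562 CPM at 16 dpc (2.30-fold, log2 interval 0.41 to 1.99, adjusted p = 0.0661). In the comparisons of AAV8-p21 with AAV8-null 0 of the 20 passed in edgeR (3 at 16 dpc and 4 at 8 dpc at an unadjusted p under 0.05, 2 and 0 called by DESeq2, 0 and 1 by limma), and the largest difference was that of Pdk4 at 16 dpc (-4.26, -6.00 to -2.52, adjusted p = 0.0623). Without replicate 2 of the AAV8-null group it was -2.37 and did not pass either, and it passed without replicate 1 (0.0478) or replicate 3 (0.0332) of that group and in DESeq2 (0.000153). The median of the 20 was 0.25 at 16 dpc against NP with AAV8-null, beside 1.17 for the 9 members.

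**Figure D4:**
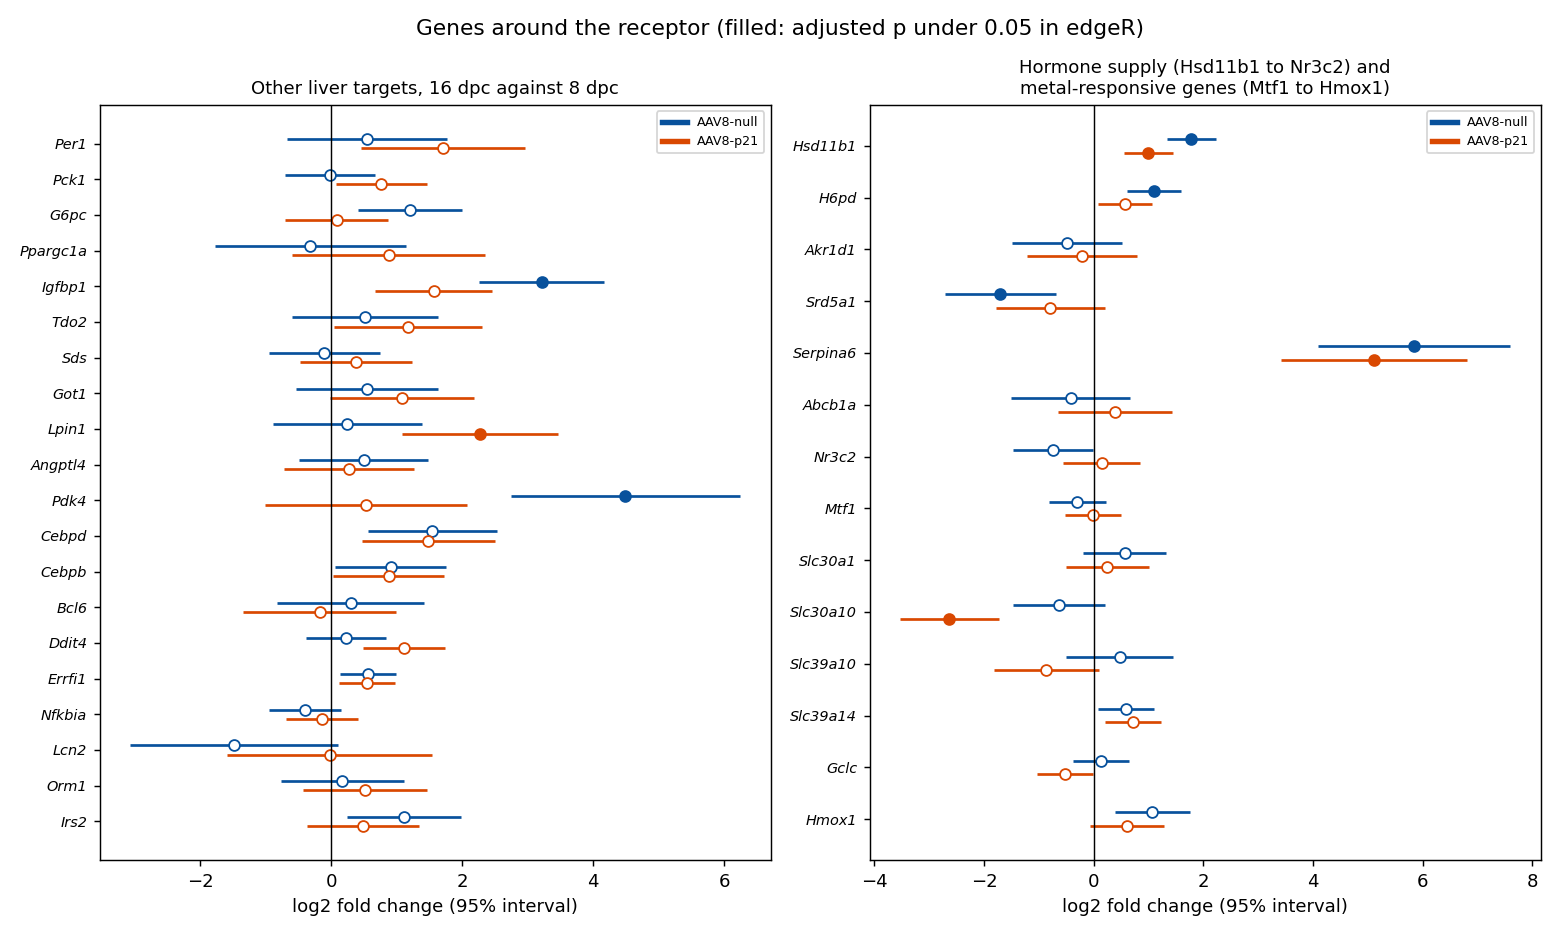
Log2 fold changes with 95% intervals at 16 against 8 dpc, for AAV8-null and AAV8-p21, of 20 further liver targets (left) and of 7 genes of hormone supply and 7 metal-responsive genes (right). Filled points passed at an adjusted p under 0.05. Serpina6 and Hsd11b1 passed under both viruses, and Igfbp1 and Pdk4 with AAV8-null.

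Of 7 other metal-responsive genes, 5 had a positive sign at 16 dpc against NP with AAV8-null, with a median log2 fold change of 0.54, and for AAV8-p21 against AAV8-null at 16 dpc 5 were negative, with a median of -0.35. In edgeR 1 of the 7, the zinc importer Slc39a14, passed at 16 dpc against NP, where DESeq2 called 2 and limma 3 (1.05, adjusted p = 0.0190, and 0.0505 to 0.0817 in the 4 of 6 leave-outs in which it failed, 0.0942 with the compared groups alone, and 0.39 with 0.220 by library totals), and Slc30a10, a manganese exporter, fell by 2.63 between the stages with AAV8-p21 (adjusted p = 0.00301, without any 1 library too). Mtf1, the metal-sensing transcription factor, did not pass in any comparison in edgeR.

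Other groups of genes moved with the members, and their part in these results was not tested. Of 10 immediate-early genes tested, 6 were higher at 16 dpc against NP with AAV8-null, Fos (2.56), Jun (1.71), Junb (2.47), Egr1 (2.86), Ier3 (2.89) and Btg2 (2.97), of which Jun, Egr1 and Btg2 passed without any 1 library, Fos in 5 of 6 leave-outs and Junb and Ier3 in 2 of 6 each. With the replicate block Junb did not pass against NP (adjusted p = 0.0708), nor Ier3 against 8 dpc (0.0660). Jun, Ier3 (2.16, and 0.94 without AAV8-null replicate 3 at 16 dpc) and Btg2 passed against 8 dpc, the last 2 in 2 of 6 leave-outs each, and Jun and Btg2 passed between the stages with AAV8-p21, in 3 and 5 of 6 leave-outs. Markers of sinusoidal endothelium summed to 113 to 211 CPM in NP livers, to 81.3 to 113 CPM in AAV8-null livers at 8 dpc and to 160 to 215 CPM at 16 dpc. At 16 against 8 dpc 5 of 5 were positive (median 0.87), with 2 called in edgeR and 4 in limma. At 8 dpc against NP all 5 were negative (median -0.88), with 0 called in edgeR and 5 in limma. At 16 dpc against NP 3 of 5 were positive (median 0.23), with 0 called. Those of stellate cells summed to 188 to 218 CPM in NP livers, and to 99.7 to 164 CPM and 202 to 305 CPM at 8 and 16 dpc with AAV8-null. At 16 against 8 dpc 4 of 5 were positive (median 1.04), with 1 called in edgeR and 4 in DESeq2. At 8 dpc against NP all 5 were negative (median -0.65), with 0 called in edgeR and 2 in limma. At 16 dpc against NP 4 of 5 were positive (median 0.15), and edgeR called 1 lower. At 8 dpc all 5 stellate markers were positive for AAV8-p21 against AAV8-null (median 0.58, 164 to 244 CPM with AAV8-p21), with 0 called by edgeR, DESeq2 or limma and 4 at an unadjusted p under 0.05. Neutrophil markers summed to 0.548 to 1.66 CPM in NP livers, to 4.76 to 14.6 CPM and 5.42 to 29.1 CPM in AAV8-null livers at 8 and 16 dpc, and to 1.997 to 3.26 CPM and 2.30 to 4.14 CPM with AAV8-p21. In the AAV8-null groups these sums were above NP at both stages, as Mt1 and Mt2 were. The sums at 8 and 16 dpc overlapped, where Mt1 and Mt2 did not. All 3 tested markers of 5 were called at 16 dpc against NP (S100a8 at 3.99 and S100a9 at 3.77 without any 1 library too, Retnlg at 3.80 in 2 of 6 leave-outs, with an adjusted p of up to 0.229 and 2.27 without AAV8-null replicate 3 at 16 dpc), and the defining marker Ly6g had at most 1 count in any liver. With AAV8-p21 against AAV8-null all 3 were negative at 16 dpc (median -2.50) and at 8 dpc (-1.88), as Mt1 and Mt2 were, each time with 0 called in edgeR and 3 at an unadjusted p under 0.05, where DESeq2 called 2 and 0 and limma 0. Between the stages with AAV8-p21, 2 of the 3 were negative (median -0.04), while the changes of Mt1 and Mt2 were 1.66 and 1.58. Cholangiocyte markers summed to 19.7 to 31.4 CPM in NP livers, to 18 to 26.8 CPM at 8 dpc and 8.41 to 17.3 CPM at 16 dpc with AAV8-null, and to 36.0 to 53.3 CPM and 19.6 to 43.0 CPM with AAV8-p21, whose sums were above those of AAV8-null at both stages without overlap. Of these 5 markers 4 were positive for AAV8-p21 at each stage (median 0.75 at 8 dpc and 0.69 at 16 dpc), with 0 called in edgeR, 1 and 2 at an unadjusted p under 0.05, and 1 called by DESeq2 and 1 by limma at 16 dpc. Spp1 held 87 to 709 counts per liver, while Krt19, Krt7, Epcam and Sox9 held at most 21, 16, 22 and 36. Spp1 was thus the largest part of the sum in every liver. Erythroid markers summed to 49.6 to 99.7 CPM in NP livers, to 89.3 to 102 CPM and 109 to 169 CPM in AAV8-null livers at 8 and 16 dpc, and to 115 to 200.4 CPM and 124 to 167 CPM with AAV8-p21. At 16 dpc against NP all 5 were positive (median 0.93), and Hbb-bs (1.05, adjusted p = 0.0442) and Alas2 (2.84-fold, adjusted p = 0.0135) passed, in 2 and 4 of 6 leave-outs. Alas2 also passed between the stages with AAV8-p21 (3.04-fold, adjusted p = 0.0133, 4 of 6 leave-outs). With the replicate block Hbb-bs did not pass (adjusted p = 0.0803), and by library totals it was at 0.40 (0.280). At 8 dpc all 5 were positive for AAV8-p21 against AAV8-null (median 0.59), with 3 that did not overlap, beside 10% of all genes. Of the 5, 0 were called by edgeR, DESeq2 or limma, and 2 had an unadjusted p under 0.05 in edgeR. Of 12 clock genes 0 passed in any comparison in edgeR, with up to 7 at an unadjusted p under 0.05, up to 1 called by DESeq2 and up to 8 by limma, and they differed widely between livers of 1 group: Dbp was at 5.68, 86.3 and 58.0 CPM in NP livers, at 1.69, 11.4 and 1.33 CPM in AAV8-null livers at 16 dpc and at 120, 81.0 and 51.8 CPM in AAV8-p21 livers at 16 dpc. For AAV8-p21 against AAV8-null at 16 dpc the median of the 12 was 0.90, with 4 higher and 2 lower without overlap, beside 13.7% of all genes (7.02% lower). Of the 12, 5 had an unadjusted p under 0.05 in edgeR, beside 9.77% of all genes, and limma called 2. The hour of collection is not given in the sources used here.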

How the data were processed

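Libraries were made from liver RNA (TruSeq Stranded mRNA) and sequenced on an Illumina NextSeq. The authors used cutadapt 1.14 for trimming, HISAT2 2.1.0 for alignment (mm10) and counted unique reads per protein-coding gene with HTSeq-count 0.12.4; the deposited table holds raw counts. The strand setting is not given in the sources used here. Columns were matched to groups by their names; the numbers of the AAV8-p21 columns at 16 dpc do not match the labels, so those libraries carry a group only.

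Genes were filtered by filterByExpr (minimum count 10), scaled by TMM and tested with the quasi-likelihood test of edgeR 4.0.16 (R 4.3.3) in 1 model of 15 libraries, with Benjamini-Hochberg adjustment over 12172 genes and calls at an adjusted p under 0.05. SE is the fold change over the root of F. The precision is set by 3 livers per group and 12280709 to 17615185 counts per library. On simulated data for 16 dpc against NP, 82.5% of 200 genes changed 4-fold were recovered among 12030 genes. DESeq2 1.42.0, limma voom 3.58.1, other scalings and filters, leaving out each library and a replicate block were alternatives; scaling by library totals and the list genes' alternatives were added after seeing the data. Promoter windows and gene positions are from RefSeq (GRCm38.p6) and GENCODE M21, not the authors' vM25; 8 of the 10 genes had a window, and Nr3c1 and Zbtb16 did not. Named are all 10 members, genes of the pathway lists that passed (or the 2 largest changes), and the 3 genes most correlated with Nr3c1, Sgk1, Fkbp5 and Tsc22d3; Pck1, G6pc, Mtf1, Dbp, Hsd11b1 between the viruses and the cell type markers named were chosen after their values were seen. Members and lists were chosen with earlier results of these data known.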

Additional observations from a re-analysis of the deposited data

How the results depend on the processing

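Of 968 refitted values of single genes under settings other than leaving out a library, 883 kept their direction and their side of the threshold, 37 came to pass, 30 no longer passed and 18 changed sign; with 1 library left out, 568 of 690 kept both. Sgk1, Tsc22d3, Mt1 and Mt2 at 16 dpc against NP, Sgk1 between the stages with AAV8-null and Fkbp5 between the stages with AAV8-p21 passed under every setting tried. The causes of the other changes were not tested.

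Scaling by library totals, chosen after seeing the data, gave 6150 genes (233 higher, 5917 lower) at 16 dpc against NP, 6508 (190 and 6318) at 16 against 8 dpc with AAV8-null, 4317 (179 and 4138) with AAV8-p21 and 16 for AAV8-p21 against AAV8-null at 16 dpc; it also called 5 of the 10 genes between the stages with AAV8-p21. It turned the sign of Klf9 at 16 dpc against NP (-0.15), of Nr3c1 (0.12), Fkbp5 (0.085) and Tat (0.050) for AAV8-p21 against AAV8-null at 16 dpc, of Klf9 (-0.30) and Dusp1 (-0.45) at 16 against 8 dpc with AAV8-null and of Tat in the interaction (0.094), and under it Fkbp5 did not pass between the stages with AAV8-null (0.43, adjusted p = 0.239), nor did H6pd (0.157) and Ier3 (0.0528) there, Irs2 (0.0847), Slc39a14 (0.220) and Hbb-bs (0.280) at 16 dpc against NP, or Hsd11b1 with AAV8-p21 (0.0680). Nr3c1 passed under it at 16 dpc against NP, against 8 dpc with AAV8-null (-1.0) and with AAV8-p21 (-0.83).

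With no filter on low counts AAV8-p21 against AAV8-null gave 21 genes at 16 dpc; where every library had to hold 10 or more counts it gave 3, Nr3c1 was at 0.014 there, and 0 genes passed at 8 dpc. DESeq2 called 1207 genes at 16 dpc and 66 at 8 dpc against NP, 135 and 29 for AAV8-p21 against AAV8-null at 16 and 8 dpc, and 1358 and 797 between the stages with AAV8-null and AAV8-p21, with 1 of the 10 genes at 8 dpc against NP, 1 and 2 for AAV8-p21 at 16 and 8 dpc, and 5 and 6 between the stages. In the same order limma called 1602, 1850, 117, 105, 1707 and 1817 genes, with 5 of the 10 genes at 8 dpc against NP, 1 and 4 for AAV8-p21, and 8 between the stages with AAV8-p21. Its sign differed for Tat (-0.54) and Klf9 (-0.035) at 8 dpc against NP, for Nr3c1 (0.16) and Fkbp5 (0.010) at 16 dpc and for Nr3c1 (0.076), Sgk1 (0.55) and Tat (0.65) at 8 dpc with AAV8-p21 against AAV8-null. With the compared groups fitted alone, 399 genes passed at 16 dpc against NP, 338 at 16 against 8 dpc with AAV8-null (1 of the 10 genes, Sgk1) and 5 for AAV8-p21 against AAV8-null at each stage (1 of the 10, Zbtb16, at 8 dpc); the adjusted p of calls lost was 0.0676 for Pdk4, 0.0942 for Slc39a14, 0.0804 for Ier3, 0.0574 for S100a9, 0.0898 for Hbb-bs and 0.0535 for Alas2 against NP, 0.0879 for Fkbp5, 0.0845 for Tsc22d3, 0.0882 for H6pd, 0.0908 for Srd5a1, 0.0555 for Pdk4, 0.140 for Ier3 and 0.0856 for Btg2 between the stages with AAV8-null, and 0.0569 for Hsd11b1 and 0.0504 for Jun with AAV8-p21.

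Replicate numbers showed no steady pairing of the livers: no pair of groups had all same-number correlations over 0.1. The group of AAV8-p21 at 16 dpc could not be checked. For NP with AAV8-null at 16 dpc the same-number mean was 0.25 (-0.05 to 0.47), beside -0.13 for other numbers. The replicate block, which could be fitted for the 12 livers other than AAV8-p21 at 16 dpc, gave 657 genes at 16 dpc against NP, 655 at 16 against 8 dpc with AAV8-null, 0 at 8 dpc against NP and 2 for AAV8-p21 at 8 dpc, with 4, 3, 0 and 0 of the 10 genes, beside 739, 754, 0 and 2 genes with 4, 2, 0 and 0 of the 10 in the same livers unblocked (a fit added after seeing the data); with the block Pdk4 (3.46, adjusted p = 0.0557), Junb (0.0708) and Hbb-bs (0.0803) did not pass at 16 dpc against NP, nor Ier3 against 8 dpc (0.0660), and signs turned for Tat at 8 dpc against NP (-0.031) and for Sgk1 (0.12) and Tat (0.053) with AAV8-p21 at 8 dpc.

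Leaving out 1 library, genes called ranged from 373 to 734 (16 dpc against NP), 0 to 92 (8 dpc against NP), 3 to 35 and 2 to 38 (AAV8-p21 at 16 and 8 dpc), 258 to 1279 and 159 to 464 (between the stages with AAV8-null and AAV8-p21). Of the 10 genes, 1 to 3 passed between the stages with either virus and 0 to 1 for AAV8-p21 at 8 dpc. Values that changed sign were those of Fkbp5 (-0.63 to 0.10), Klf9 (-0.056 to 0.37), Nr3c1 (-0.31 to 0.10) and Tat (-0.48 to 0.38) at 8 dpc against NP; Dusp1 (-0.85 to 0.66), Fkbp5 (-0.17 to 0.058), Nr3c1 (-0.17 to 0.28) and Tat (-0.17 to 0.011) for AAV8-p21 at 16 dpc; Nr3c1 (-0.30 to 0.20), Sgk1 (-0.32 to 0.67) and Tat (-0.39 to 0.48) for AAV8-p21 at 8 dpc; Dusp1 (-0.15 to 0.69) and Zbtb16 (-0.41 to 0.16) between the stages with AAV8-null; Nr3c1 (-0.48 to 0.012) with AAV8-p21; and Mt2 (-0.25 to 1.25), Nr3c1 (-0.22 to 0.32) and Tat (-0.55 to 0.31) in the interaction. With 3 livers a group, a single gene's exact permutation test cannot go below p = 0.1.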
